A study of Mus musculus with 3 samples.

Results

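The genes described here encode the ligand transforming growth factor beta 1 and the proteins that process it, hold it at the cell surface, receive it and pass its signal on. They are 10 of the 55536 annotated genes, taken by symbol from a list: Tgfb1, Furin, Lrrc32, Tgfbr1, Tgfbr2, Smad2, Smad3, Smad4, Smad7 and Ski. Polyadenylated RNA of activated regulatory T (Treg) cells was sequenced from 1 male mouse aged 9 weeks. Treg cells are a CD4 lineage, set by the transcription factor Foxp3, that holds other immune cells in check. The study had 1 group of 3 libraries, which the labels call technical replicates 1, 2 and 3 of 1 biosample, so no condition could be compared. The labels name no genetic alteration, and the means of activation and isolation are not stated in them. Each SD with n = 3 is over libraries of the same RNA source and is technical, and p-values measure the spread between those libraries, not between animals.

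TGF-beta is made as a precursor that the proprotein convertase furin cuts in the secretory pathway. The cut propeptide stays wrapped around the mature ligand as a latent complex, which on Treg cells is tethered to the surface by GARP, the product of Lrrc32, until integrins pull the ligand free. The freed ligand binds the type II receptor kinase, which phosphorylates the type I receptor, which phosphorylates Smad2 and Smad3. These join Smad4, enter the nucleus and regulate genes, among them Smad7, whose product blocks the receptor, while the corepressor Ski holds Smad target genes off. In T cells the pathway is known for inducing Foxp3 outside the thymus and for restraining effector responses.

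All 10 genes were expressed above the median of detected protein-coding genes. Each had at least 1 TPM (a length-corrected transcript level: reads divided by transcript length and scaled to the same total in each library) in all 3 libraries, as did 47.3% of protein-coding genes (10429 of 22028). Their mean levels ran over a 5.35-fold range, from 33.4 TPM for Smad3 to 178 TPM for Lrrc32, with a median of 64.4 TPM, against a median of 29.2 TPM over the detected protein-coding genes. The lowest of them, Smad3, stood at the 53.8th percentile of those genes. Together they summed to 823, 816 and 810 TPM in libraries 1, 2 and 3. The libraries held 31445344, 32612609 and 37259281 expected counts, and the 10 genes had between 2383 and 13629 counts each in a library.

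**Figure D1:**
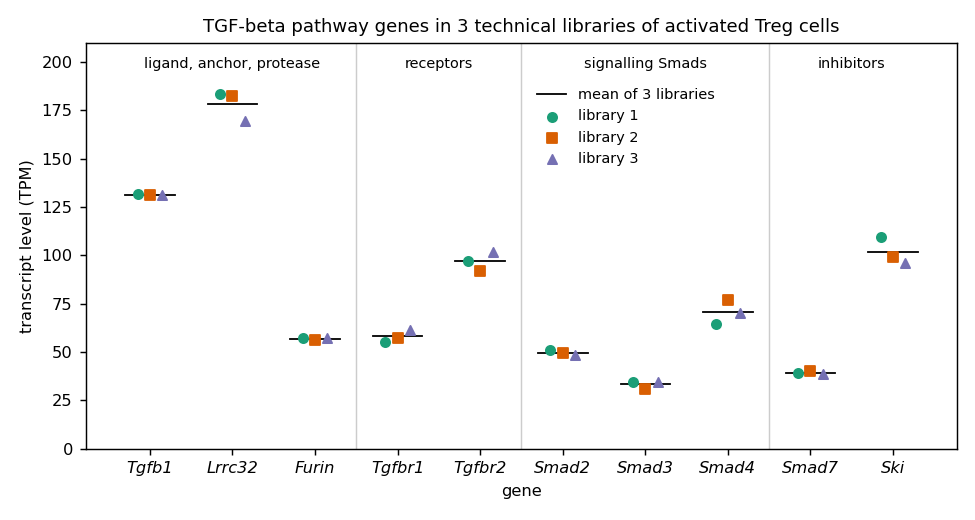
Transcript levels (TPM, y axis) of the 10 genes in libraries 1, 2 and 3 (points) with their mean (line), ordered by role. Lrrc32 and Tgfb1 stand highest, at 178 and 131 TPM, and Smad3 lowest, at 33.4 TPM; the widest relative gap between libraries is that of Smad4.

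The ligand gene Tgfb1 (ENSMUSG00000002603.15, mm10 chromosome 7, 25687002 to 25705077, plus strand) had 131.56, 131.39 and 131.05 TPM in libraries 1, 2 and 3, a mean of 131 ± 0.260 TPM (SD, n = 3) at the 87.3rd percentile of detected protein-coding genes. The 3 values lay closer together than those of any other of the 10 genes. Its only protein-coding transcript, Tgfb1-201, carried 83.7% ± 0.352 of the gene's TPM (SD, n = 3). The other 4 annotated transcripts, which retain introns, lack a coding sequence or are marked for nonsense-mediated decay, took 16.3% ± 0.352. By expected counts, which are not corrected for length, their share was 9.70% ± 0.291.

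The features on which activation of the ligand depends lie close together in Tgfb1-201. A stretch of its coding sequence is shown because it holds both the tripeptide RGD that αv integrins grip (the first block of capitals) and the furin site RHRR (the second block). RGD is residues 244 to 246 of the 390 encoded, at 25697142 to 25697150, and RHRR is residues 275 to 278, at 25697235 to 25697246. Both blocks lie in exon 5, and 112 residues, the mature ligand, follow the furin site. The stretch is spliced and runs over chr7:25697127-25704128 of mm10, plus strand.

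Tgfb1: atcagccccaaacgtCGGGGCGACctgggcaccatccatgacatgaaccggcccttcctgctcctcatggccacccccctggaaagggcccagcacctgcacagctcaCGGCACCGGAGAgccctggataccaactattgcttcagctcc

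The other ligands of the same subfamily were close to absent. Tgfb2 had 0.01, 0 and 0.14 TPM in libraries 1, 2 and 3, from 1, 0 and 1 counts. Tgfb3 had 0.69, 1.03 and 0.41 TPM, a mean of 0.710 ± 0.310 TPM (SD, n = 3), and did not pass the detection rule. Of the 3 ligand genes, Tgfb1 was therefore the only one detected.

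Furin (ENSMUSG00000030530.15, chromosome 7, 80388585 to 80405436, minus strand), the convertase that cuts the precursor, had 57.21, 56.32 and 57.30 TPM, a mean of 56.9 ± 0.542 TPM (SD, n = 3). The values of the 3 libraries lay close together. The log2 ratio of Tgfb1 to Furin was 1.20, 1.22 and 1.19 in libraries 1, 2 and 3, so on the TPM scale the ligand transcript was 2.31-fold as abundant as that of its protease. The size of this gap depended on the scale, with a log2 ratio of 0.16 ± 0.05 with no correction for length and 0.79 ± 0.02 in the smaller gene table, counted separately by the authors and taken per kilobase. The 118 exon bases that Furin shares with the antisense gene Gm44851 could carry mixed reads, since no source used here says whether counting used strand; Gm44851 itself had 0.22, 0.28 and 0.78 TPM.

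Furin has annotated starts 2669 bases apart, which precede the same coding sequence, and most of its level was assigned to the downstream one. Furin-203, which begins there, carried 88.6%, 83.0% and 85.0% of the gene's TPM in libraries 1, 2 and 3, a mean of 85.5% ± 2.80 (SD, n = 3). Furin-201 and Furin-204, which begin upstream, carried 0.787% ± 0.684, from 56.54, 5.28 and 0 expected counts. The deposited posterior SD of the Furin-201 count was 149.52, 86.24 and 55.18, so a share of that size could not be told from 0. Furin-202, which begins further inside the gene, carried 3.89% ± 1.13.

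The windows before these starts are shown because they differ in base composition. They come from the RefSeq promoter table on GRCm38.p6, cover 250 bases before the RefSeq start to 30 after it, and are read on the minus strand, at chr7:80405407-80405686 for the upstream start and chr7:80402783-80403062 for the downstream one. The RefSeq starts lie 5 and 50 bases upstream of the GENCODE starts of Furin-201 and Furin-203. Capitals mark 2 motifs, each searched on both strands. The TATA motif was spelled TATAAA, and the binding motif of Sp1-like factors was spelled GGGCGG.

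Furin upstream start: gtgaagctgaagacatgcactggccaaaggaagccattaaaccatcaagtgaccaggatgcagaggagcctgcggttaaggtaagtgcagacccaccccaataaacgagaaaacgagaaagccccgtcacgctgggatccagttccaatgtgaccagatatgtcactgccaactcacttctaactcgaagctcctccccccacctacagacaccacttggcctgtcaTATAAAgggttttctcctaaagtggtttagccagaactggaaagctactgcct

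Furin downstream start: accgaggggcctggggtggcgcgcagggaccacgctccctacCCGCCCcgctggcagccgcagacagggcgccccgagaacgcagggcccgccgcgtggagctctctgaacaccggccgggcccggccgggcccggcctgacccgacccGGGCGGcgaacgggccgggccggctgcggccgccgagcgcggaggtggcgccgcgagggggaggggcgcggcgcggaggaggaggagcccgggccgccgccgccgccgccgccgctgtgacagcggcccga

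The upstream window had 50.4% G and C, 6 CpG pairs, 1 TATAAA and no GGGCGG. Its TATAAA began 23 bases before the RefSeq start. The downstream window, whose transcript carried most of the level, had 83.2% G and C, 47 CpG pairs, 2 matches to GGGCGG and no TATAAA. Over the 32851 windows of this length in the table, the median was 52.5% G and C, 34.7% held GGGCGG and 13.1% held TATAAA. The letters CAGAC, the core that Smad proteins bind, were matched 2 times upstream and 1 time downstream, and 46.8% of all windows held them. No match overlapped one of another motif.

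Lrrc32 (ENSMUSG00000090958.2, chromosome 7, 98489283 to 98502181, plus strand), which encodes the surface anchor GARP, was the most abundant of the 10 genes, at 183.28, 182.22 and 169.41 TPM in libraries 1, 2 and 3. The mean was 178 ± 7.72 TPM (SD, n = 3), at the 91.2nd percentile of detected protein-coding genes, and library 3 was the lowest. The log2 ratio of Tgfb1 to Lrrc32 was -0.48, -0.47 and -0.37, a mean of -0.44 ± 0.06 (SD, n = 3). The ligand transcript thus stood at 0.737 times that of its anchor, a gap larger than the spread between libraries. In the smaller gene table the same ratio was -0.09 ± 0.05, which is within 2 SD of 0, and with no correction for length it was -1.25 ± 0.07. Counts in the smaller table were not in proportion to the expected counts (values below), and what this did to its ratios was not tested. Lrrc32-201 carried 82.0% ± 2.45 of the gene's TPM; it begins at its first coding base, so its share says nothing about which start the cells used.

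Of 21 listed genes of latency and activation, Lrrc32 and Furin among them, 12 were detected, a share not far from the 47.3% of all protein-coding genes. The 4 highest were the integrin chain gene Itgb1 (441 ± 5.59 TPM), Hsp90b1 (311 ± 11.2 TPM), whose chaperone product folds GARP and integrins, Lrrc32, and Nrros (71.7 ± 7.10 TPM; SD, n = 3 each), whose product anchors latent TGF-beta in myeloid cells. Nrros had 78.40, 64.26 and 72.52 TPM in libraries 1, 2 and 3. The lowest detected gene of the list was Itgb5 at 2.32 ± 0.650 TPM, and Thbs1, which encodes the activator thrombospondin 1, had 0 counts in all libraries, which allows a level of up to 0.0445 TPM (3 counts).

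The chains of the integrin that frees TGF-beta from GARP on Treg cells were both detected. These genes were picked after their values were seen. Itgav, which encodes the αv chain, had 64.89, 59.88 and 58.72 TPM in libraries 1, 2 and 3, and Itgb8, which encodes the partner β8, had 8.35, 11.46 and 8.73 TPM. Protein-coding transcripts carried 71.0% of the TPM of Itgav and 33.8% of that of Itgb8. Itgb3, another partner of αv, stood higher than Itgb8, at 29.0 ± 1.27 TPM against 9.51 ± 1.70 TPM (SD, n = 3 each). The convertase gene Pcsk7 reached 37.6 ± 3.25 TPM, of which protein-coding transcripts carried 58.4%, and was below Furin in each library. The 4 genes Ltbp1 to Ltbp4, whose products tether latent TGF-beta to the matrix, did not exceed 1.24 TPM in any library.

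Both TGF-beta receptor genes were abundant, and the type II receptor transcript exceeded the type I. Tgfbr2 (ENSMUSG00000032440.13, chromosome 9, 116084293 to 116175360, minus strand) had 97.20, 91.95 and 101.94 TPM in libraries 1, 2 and 3, a mean of 97.0 ± 5.0 TPM (SD, n = 3). Tgfbr1 (ENSMUSG00000007613.15, chromosome 4, 47353222 to 47414931, plus strand) had 55.41, 57.35 and 61.58 TPM, a mean of 58.1 ± 3.16 TPM. The values of the receptors did not overlap, and their log2 ratio was 0.81, 0.68 and 0.73, a 1.67-fold excess of Tgfbr2 that was larger than the spread between libraries. On a scale added after the data were seen, counts over the longest protein-coding transcript, the receptors' log2 ratio was 0.28 ± 0.11. Tgfb1 exceeded Tgfbr2 in all 3 libraries, by 0.44 ± 0.08 on the log2 scale (SD, n = 3). With protein-coding transcripts only, the log2 ratio of Tgfb1 to Tgfbr2 was 0.18 ± 0.08, and with no correction for length it was -0.88 ± 0.09.

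Tgfbr2 was carried by a pair of transcripts that differ by 1 coding exon. Tgfbr2-202 holds an extra exon of 75 bases, or 25 codons, near the start of the coding sequence, which lengthens the extracellular part of the receptor. It carried 33.1%, 30.8% and 31.7% of the gene's TPM in libraries 1, 2 and 3, and Tgfbr2-201, without the exon, carried 68.1% ± 1.14 (SD, n = 3). By expected counts the order turned, with 52.3% ± 1.31 for Tgfbr2-202 against 47.7% ± 1.31 for Tgfbr2-201. Tgfbr2-202 also has 4636 more bases at its 3′ end, so reads from those bases enter the same estimate as reads from the exon. The posterior SD of its count was at most 67.7, on counts of 5035, 4720 and 6076.

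The exon is shown in capitals, with 24 bases of the flanking coding exons on each side, as exon 2 of Tgfbr2-202 (chr9:116158271-116158345 of mm10, minus strand).

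Tgfbr2-202: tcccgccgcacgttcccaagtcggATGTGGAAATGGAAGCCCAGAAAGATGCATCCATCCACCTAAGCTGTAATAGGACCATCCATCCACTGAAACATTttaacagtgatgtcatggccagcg

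Tgfbr1 had a smaller difference of the same kind, 12 bases (4 codons) at the start of the third coding exon. Transcripts with these bases carried 84.8%, 87.0% and 87.3% of the gene's TPM in libraries 1, 2 and 3. Transcripts without them carried 12.98% ± 1.74, against 86.4% ± 1.32 with them (SD, n = 3). All of the share without them was given to Tgfbr1-205, which has 1302 coding bases against 1509 in Tgfbr1-201. The annotated form with 1497 coding bases, Tgfbr1-202, had 0 counts in all libraries. Tgfbr1-205 thus differs by more than the 12 bases, and reads from its other differences enter the same estimate. By expected counts the share with them was 95.1% ± 0.675. The bases are shown in capitals within Tgfbr1-201 (chr4:47393247-47393258 of mm10, plus strand), after 30 bases of the exon before and ahead of 30 bases of the same exon.

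Tgfbr1-201: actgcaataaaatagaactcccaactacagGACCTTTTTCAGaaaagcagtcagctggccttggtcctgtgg

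Receptors of the wider family were low beside this pair. Of 17 receptor and co-receptor genes, 8 were detected, a share like the 47.3% of all protein-coding genes, and the median over the 17 was 1.24 TPM, against 0.808 TPM over all protein-coding genes. After Tgfbr2 and Tgfbr1 came Tgfbr3, which encodes the co-receptor betaglycan (5.02 ± 1.10 TPM), and Acvrl1, a type I receptor gene (4.72 ± 0.836 TPM; SD, n = 3 each). The lowest detected was the activin receptor gene Acvr1c at 1.24 ± 0.0987 TPM. None of the 17 had 0 counts in all libraries.

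The Smad genes of the TGF-beta arm stood above those of the bone morphogenetic protein (BMP) arm. Smad2 (ENSMUSG00000024563.16, chromosome 18, 76241580 to 76310963, plus strand) had 50.84, 49.74 and 48.67 TPM in libraries 1, 2 and 3, a mean of 49.8 ± 1.09 TPM (SD, n = 3). Smad3 (ENSMUSG00000032402.12, chromosome 9, 63646767 to 63757994, minus strand) had 34.34, 31.10 and 34.61 TPM, a mean of 33.4 ± 1.95 TPM. Every library had more Smad2 than Smad3, and the groups of values did not overlap. Of the BMP-activated Smad genes, Smad5 had 11.5 ± 0.961 TPM and Smad1, the lowest detected of the 8 Smad genes, 10.8 ± 1.02 TPM, while Smad9 had 0 counts in all libraries, which allows up to 0.0268 TPM (3 counts).

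The order of Smad2 and Smad3 depended on the scale. Their log2 TPM ratio was 0.57, 0.68 and 0.49, a mean of 0.58 ± 0.09 (SD, n = 3). With no length correction, in counts scaled to the library total only (CPM), it was -0.40 ± 0.09. With counts divided by the longest protein-coding transcript, a scale added after the data were seen, it was -1.07 ± 0.09. In the smaller table per kilobase it was 1.85 ± 0.10, in the direction of TPM. Smad2 had 2383, 2453 and 2737 counts in libraries 1, 2 and 3, and Smad3 had 3196, 3022 and 3819. The deposited length of Smad2 in library 1 was 2457 bases, while its longest transcript, Smad2-205, has 8089 bases and was given 4.26% ± 0.738 of the gene's TPM and 14.3% ± 2.51 of its counts.

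Most Smad2 transcript level included the 90-base coding exon (30 codons) whose insertion is known to keep Smad2 from binding DNA directly. Transcripts with the exon carried 72.8%, 79.8% and 84.0% of the gene's TPM in libraries 1, 2 and 3. Transcripts without it carried 27.2%, 15.92% and 16.03%, so library 1 stood apart from the others. The means were 19.7% ± 6.48 without the exon and 78.9% ± 5.65 with it (SD, n = 3). By expected counts they were 13.1% ± 4.26 without the exon and 86.6% ± 3.998 with it. Smad2-207, with 0%, 4.26% and 0% of TPM in libraries 1, 2 and 3, was in neither group. Without library 1 the share of TPM lacking the exon ranged between 15.92% and 16.03%. All of the share without the exon was given to Smad2-202. This transcript begins at 76241701, where Smad2-201 begins at 76261121, so reads from bases outside the exon enter the same estimate. The posterior SD of the Smad2-202 count was 40, 33.28 and 30.49 in libraries 1, 2 and 3, on counts of 429, 262 and 291.

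Smad4 (ENSMUSG00000024515.13, chromosome 18, 73639009 to 73703780, minus strand), the partner shared by all signalling Smads, had 64.69, 76.86 and 70.21 TPM in libraries 1, 2 and 3, a mean of 70.6 ± 6.09 TPM (SD, n = 3), with library 1 lowest and library 2 highest. Smad7 (ENSMUSG00000025880.11, chromosome 18, 75367529 to 75395935, plus strand), the inhibitory Smad, had 39.32, 40.17 and 38.72 TPM, a mean of 39.4 ± 0.729 TPM. Smad4 exceeded Smad7 in every library, by a log2 ratio of 0.84 ± 0.11 (1.79-fold). The other inhibitory Smad gene, Smad6, which acts mainly in the BMP arm, had 0, 0.17 and 0.06 TPM. Smad3, Smad4 and Smad7 each had 1 transcript, numbered 201, that carried 93.3% ± 1.02, 95.3% ± 0.437 and 95.8% ± 2.39 of the gene's TPM.

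Ski (ENSMUSG00000029050.15, chromosome 4, 155154075 to 155222592, minus strand), the corepressor that binds Smad complexes, was the third most abundant of the 10 genes, at 109.44, 99.30 and 96.11 TPM in libraries 1, 2 and 3. The mean was 102 ± 6.96 TPM (SD, n = 3), with library 1 highest, and all of the level was assigned to Ski-201. Its relative Skil, which encodes SnoN, had 45.49, 41.94 and 49.74 TPM, so Ski exceeded it by 1.15 ± 0.18 on the log2 scale (2.22-fold). Ski also exceeded Smad7, by 1.36 ± 0.10 on the log2 scale (2.58-fold). Both gaps were larger than the spread between libraries.

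Most Smad cofactors and most regulators of receptor and Smad turnover were detected, where 47.3% of all protein-coding genes were. Of 13 corepressor and coactivator genes 11 were detected, with a median of 26.9 TPM. They were led by Ncor1 (331 ± 4.46 TPM), Ctbp1 (227 ± 9.61 TPM), Ski and Skil, and Tgif2 was the lowest detected at 12.1 ± 2.94 TPM (SD, n = 3 each). Of 19 turnover and anchoring genes 17 were detected, with a median of 23.5 TPM, led by Fkbp1a (387 ± 11.1 TPM), whose product FKBP12 keeps the type I receptor silent. The ubiquitin ligase gene Stub1 (120 ± 9.04 TPM) and the deubiquitinase genes Usp4 (109 ± 8.44 TPM) and Usp15 (95.9 ± 6.07 TPM) followed, and Usp11 was the lowest detected at 6.15 ± 1.36 TPM. Protein-coding transcripts carried 67.6% of the TPM of Fkbp1a and 76.7% of that of Usp4, but 34.5% of that of Stub1 and 7.42% of that of Usp15.

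**Figure D2:**
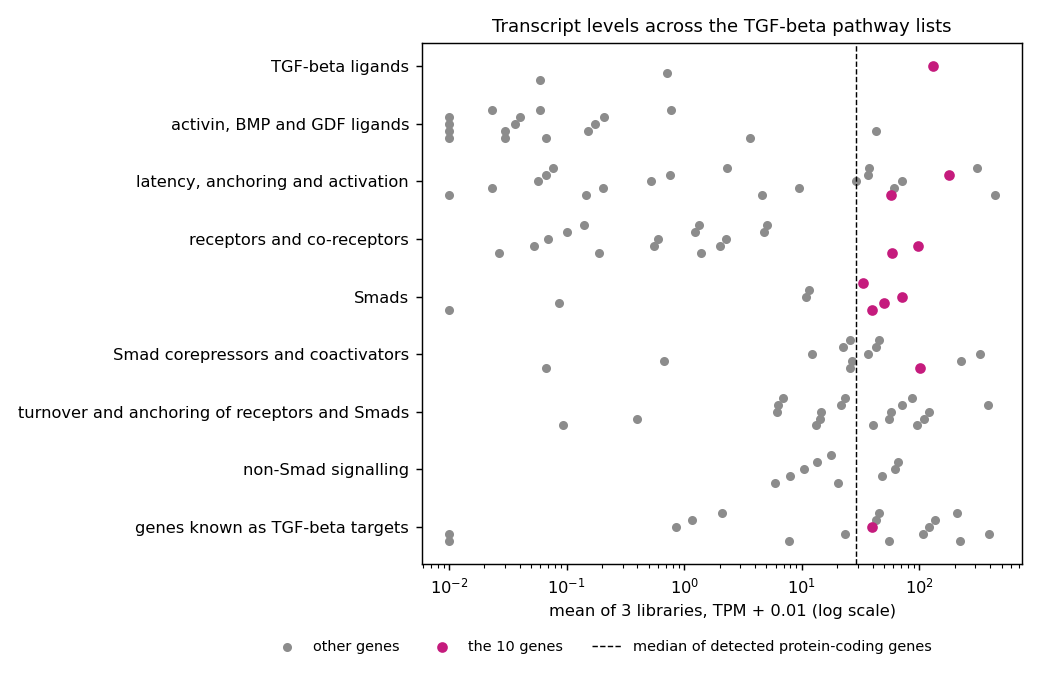
Mean level over 3 libraries (TPM + 0.01, log axis) of each gene in 9 lists of the TGF-beta pathway (rows); the 10 genes described are coloured and the dashed line is the median of detected protein-coding genes, 29.2 TPM. Most other receptors and ligands lie left of the line and the 10 genes right of it.

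Genes that TGF-beta is known to regulate in T cells were mostly present, although their levels in 1 group show no response to it. Of 17 such genes 13 were detected, where 47.3% of all protein-coding genes were, with a median of 42.7 TPM. The highest were the inhibitory receptor gene Ctla4 (389 ± 5.70 TPM), Itgae, which encodes the CD103 integrin chain (221 ± 12.4 TPM), Id2 (210 ± 9.47 TPM) and Foxp3 (135 ± 2.65 TPM; SD, n = 3 each). Protein-coding transcripts carried 54.0% of the TPM of Foxp3. Il9, a cytokine gene, had 0 counts in all libraries, which allows up to 0.293 TPM (3 counts).

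In order of mean TPM the genes were Lrrc32, Tgfb1, Ski, Tgfbr2, Smad4, Tgfbr1, Furin, Smad2, Smad7 and Smad3. Of the 9 pairs of neighbours in this order, 7 differed by more than 2 SD of their log2 ratio over libraries. The exceptions were Ski and Tgfbr2, with a log2 ratio of 0.07 ± 0.13, and Tgfbr1 and Furin, with 0.03 ± 0.08 (SD, n = 3 each). Of all 45 pairs, 43 differed by more than 2 SD. Lrrc32 stayed first on each of the 7 scales tried, and Smad2 ranged between rank 5 in the smaller table and rank 10 in CPM.

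**Figure D3:**
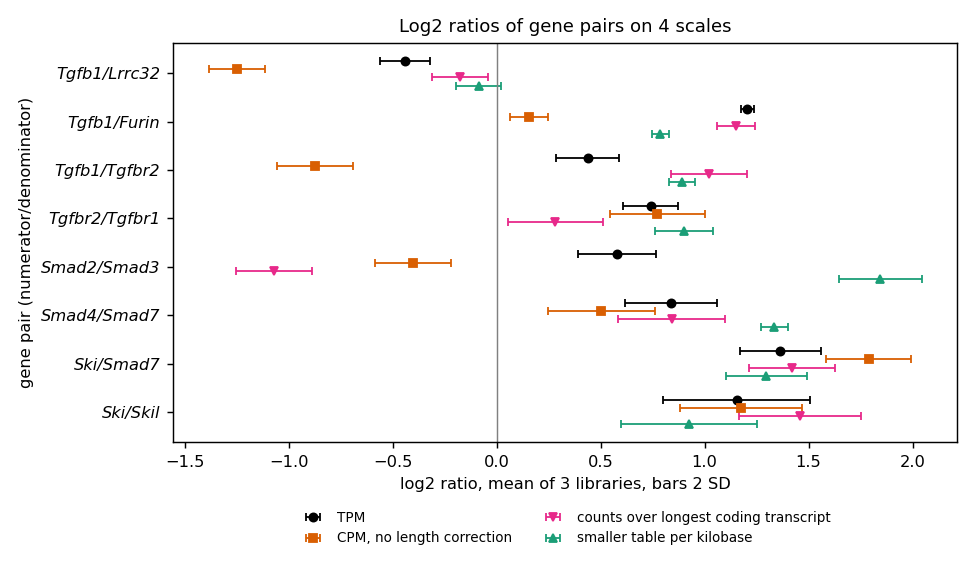
Log2 ratio (x axis, mean of 3 libraries, bars 2 SD) of 8 gene pairs on 4 scales (colours). On TPM all 8 lie beyond 2 SD from 0; Tgfb1/Tgfbr2 and Smad2/Smad3 change sign in CPM, and Smad2/Smad3 also with the longest transcript's length.

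The leading transcript differed in how far it dominated its gene. It carried over 90% of the TPM in Smad3, Smad4, Smad7 and Ski, between 80% and 90% in Tgfb1, Lrrc32 and Furin, and less in Tgfbr1 (77.1% ± 2.73), Smad2 (72.7% ± 5.43) and Tgfbr2 (68.1% ± 1.14). These shares are estimates that divide reads common to several transcripts. By expected counts the leading transcript was the same in 9 of the 10 genes, the exception being Tgfbr2.

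**Figure D4:**
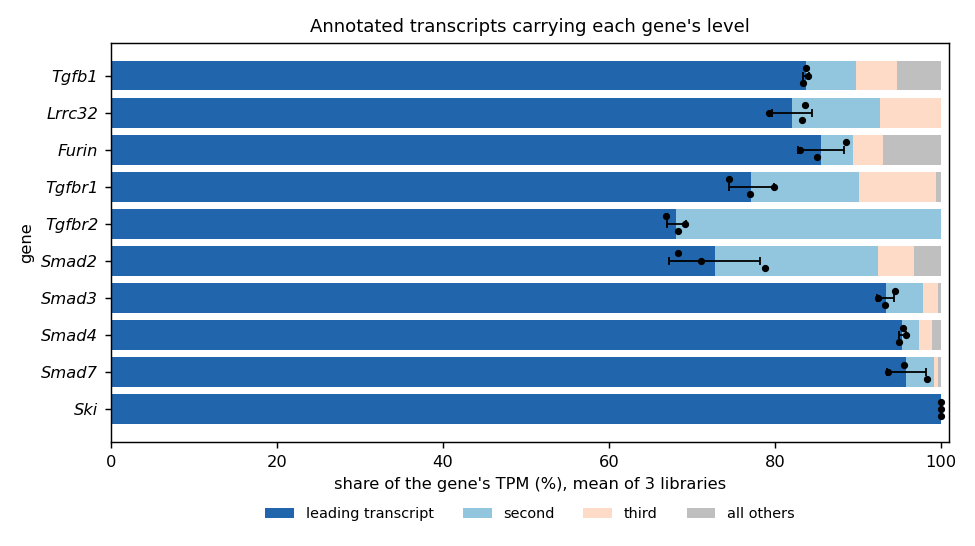
Share of each gene's TPM (x axis, mean of 3 libraries) carried by its leading, the next 2 and all other transcripts (bar segments), with the 3 libraries as points and the SD of the leading share as a bar. The leading share is lowest in Tgfbr2, at 68.1%, and is 100% in Ski.

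**Figure D5:**
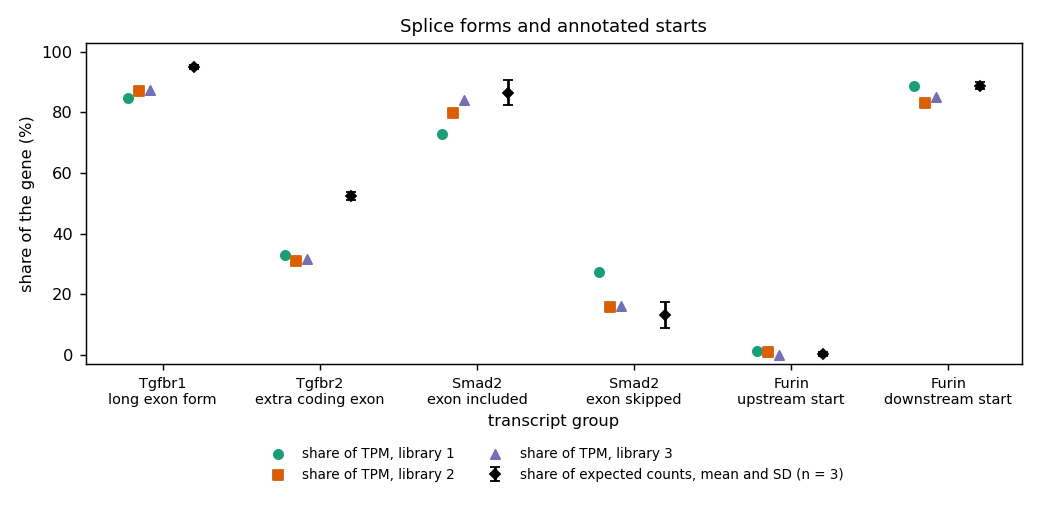
Share of the gene (y axis, percent) carried by transcript groups of Tgfbr1, Tgfbr2, Smad2 and Furin, as TPM in libraries 1, 2 and 3 (coloured points) and by its expected counts (black, mean and SD, n = 3). The Tgfbr2 form with the extra exon lies at 31.9% of TPM and 52.3% of counts. Library 1 stands apart from libraries 2 and 3 in the Smad2 group without the exon.

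The technical libraries differed by more than counting noise for most genes, and for 6 of these 10. A chi-square test of equal shares over the 3 libraries, with Benjamini-Hochberg adjustment over all 15945 genes tested, called 65.8% of them (10487). Among the 6387 tested genes whose counts averaged 1000 or more, a set that holds all 10, the test called 74.9%. It called Smad4 (adjusted p = 5.2e-21), Ski (adjusted p = 2.44e-17), Lrrc32 (adjusted p = 2.67e-13), Tgfbr1 (adjusted p = 4.82e-12), Tgfbr2 (adjusted p = 1.25e-10) and Smad3 (adjusted p = 0.000143). It did not call Tgfb1 (adjusted p = 0.343), Furin (0.111), Smad2 (0.555) or Smad7 (0.504). After scaling by the overdispersion of 8.61 estimated over all 15945 genes, the test called 1.85% of genes (295) and none of the 10. Under that scaling 4 of the 10 had an unadjusted p under 0.05, as did 10.3% of all genes tested (1635). All genes tested include genes with far fewer counts than these 10, and the share among genes of like count was not computed. After the scaling, the lowest adjusted p of the 10 was that of Smad4, at 0.107.

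In CPM the coefficient of variation over libraries ran between 1.51% and 10.5% in the 10 genes, with a median of 4.89%, against a median of 5.30% over the 6387 tested genes whose counts averaged 1000 or more. Smad4 varied most, 1.23-fold between library 2 and library 1. Haemoglobin and other red cell markers were also uneven, with sums of 825, 589 and 654 TPM in libraries 1, 2 and 3; their part in the spread was not tested.

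Markers of the labelled cells stood above those of the other cells listed, red cells apart. All 7 Treg and T cell markers were detected, where 47.3% of all protein-coding genes were, with a median of 389 TPM. The sum of 5 B cell markers was 50.9, 36.7 and 40.3 TPM in libraries 1, 2 and 3, led by Cd79b (29.3 ± 3.95 TPM), and 4 of the 5 were detected. The sum of 7 myeloid markers was 57.8, 54.1 and 57.5 TPM, led by Lyz2 (24.9 ± 6.03 TPM), and 5 were detected. The 6 platelet markers summed to 1.34, 1.25 and 1.55 TPM, led by Itga2b (0.520 ± 0.0173 TPM), and the 6 stromal and endothelial markers to 0.740, 1.77 and 0.930 TPM, led by Col1a1 (0.577 ± 0.140 TPM), with none detected in either list. All 4 CD8 T cell markers were detected, with a median of 2.08 TPM, led by Cd8b1 (21.4 ± 0.893 TPM), and all 4 red cell markers were detected, led by Hbb-bs (265 ± 47.7 TPM). In bulk RNA, fewer cells of a type and less RNA per cell cannot be told apart. Platelets carry Tgfb1 and Lrrc32 transcripts and myeloid cells carry Tgfb1 and Nrros transcripts; the part of myeloid cells in these levels was not tested.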

How the data were processed

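Expected counts, TPM and FPKM per gene and per transcript were deposited by the authors for 3 libraries, on mm10 with GENCODE M21, as is the posterior SD of each count, per the file headers. A smaller gene table of whole-number counts on GENCODE M4 was also deposited by the authors. Its counts were not in proportion to the expected counts, and the cause was not tested. Cd3e had 36433, 36586 and 43305 expected counts in libraries 1, 2 and 3 but 1291, 1282 and 1294 counts there. Smad2 had 2383, 2453 and 2737 expected counts and 1184, 1187 and 1328 counts there. The aligner, the counting program and the use of strand are not stated in the labels or headers used here. TPM and FPKM were corrected for effective length by the authors, and expected counts split reads between genes and transcripts that share them. Rows that name no annotated gene held 0.125%, 0.182% and 0.156% of counts in libraries 1, 2 and 3 and were left out of the tests and their library totals, though the library totals given above include them.

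Genes were matched by identifier to GENCODE M21 symbols, and all listed genes matched. Detection required 1 TPM in all 3 libraries. Levels were compared between genes as log2 TPM ratios within a library, set against 2 SD, with no p. Expected counts were rounded and tested with a chi-square test (2 degrees of freedom, summed count of at least 30). The test was checked on counts simulated with counting noise only. There, 200 of 200 genes raised 1.5-fold in 1 library, each with a summed count of at least 3000, were called. So were 10 of the unchanged genes among 15945. The real libraries varied by more than counting noise, so this check gives no rate of false calls for them. The limit at 0 was taken as 3 counts. Since the reads carry no molecular identifiers, the tests and limits cover counting error only. Beside the 10 genes, the text names the 4 highest and the lowest detected gene of each list and any gene with 0 counts in all libraries; some genes that this rule names are not reported here. Members and lists were chosen with earlier results of these data known, and the transcript groups after the transcripts were seen. Promoter windows (280 bases) are from RefSeq, which held 6 of the 10 genes. Alternatives were FPKM, CPM, a pseudocount of 1, protein-coding transcripts only, the smaller table, the longest transcript's length, TMM and DESeq2 scaling, other filters and leaving out each library. Python 3.11.15, scipy 1.17.1, pandas 2.3.3, R 4.3.3, edgeR 4.0.16 and DESeq2 1.42.0 were used.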

Additional observations from a re-analysis of the deposited data

How the results depend on the processing

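All 10 genes were detected under every alternative tried. The order of TPM had 43 of 45 pairs of genes beyond 2 SD. On each other scale all 45 pairs were counted again, whether or not they were beyond 2 SD in TPM. Beyond 2 SD in the direction of the TPM order were 34 in CPM (5 reversed) and 32 in the smaller table (5 reversed). With the longest transcript's length there were 39 (2 reversed), and without 1 library 41 to 42 (none reversed). Among the named pairs, the log2 ratio of Tgfb1 to Tgfbr2 was -0.88 in CPM, that of Smad2 to Smad3 was -0.40 in CPM and -1.07 with the longest transcript's length (added after seeing the data), and that of Tgfb1 to Lrrc32 was -0.086 in the smaller table. CPM and the longest transcript differ from TPM only in the length used; for the smaller table the cause was not tested. Genes varying between libraries numbered 10487 of 15945 tested in the larger table and 295 of 15945 with the shared overdispersion divided out. In the smaller table they numbered 3839 of 11469. With 2 libraries tested, they numbered 7265 of 14956 without library 1, 6069 of 14779 without library 2 and 6656 of 14787 without library 3. Of the 10 genes, 6 varied, against 0 with the overdispersion divided out, 3 in the smaller table and 5 to 6 without 1 library. TMM and DESeq2 scaling called 6 each, and 10467 and 10470 of all 15945 genes tested. No paired analysis was possible because the study has 1 group. With 1 mouse, no value here measures variation between animals.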

Other observations

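The ligands of the activin, BMP and growth and differentiation factor (GDF) branches were near 0 apart from Bmp7 and, at a lower level, Gdf11. Of 17 genes listed for these branches, not all of which encode ligands, 2 were detected, where 47.3% of all protein-coding genes were. The median over the 17 was 0.0300 TPM. Bmp7 had 45.57, 37.65 and 45.30 TPM in libraries 1, 2 and 3, a mean of 42.8 ± 4.5 TPM (SD, n = 3), from 2569, 2184 and 3023 expected counts, and library 2 was the lowest. Protein-coding transcripts carried 71.5% of the TPM of Bmp7. Gdf11 had 3.63 ± 0.366 TPM. Inha, Inhbb, Mstn and Lefty2 had 0 counts in all libraries, which allows up to 0.0999, 0.0339, 0.0562 and 0.102 TPM (3 counts). The type II BMP receptor gene Bmpr2, looked up after its value was seen, had 0.49, 0.54 and 0.72 TPM and did not pass the detection rule.

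All 9 genes listed for signalling from the receptors without Smads were detected, where 47.3% of all protein-coding genes were. Their median was 17.8 TPM. The highest were Mapk14, which encodes the kinase p38α (65.5 ± 4.06 TPM), the adaptor gene Shc1 (61.98 ± 1.24 TPM), Map3k7, which encodes the kinase TAK1 (48.2 ± 3.67 TPM, of which protein-coding transcripts carried 47.1%), and the ubiquitin ligase gene Traf6 (20.2 ± 1.20 TPM; SD, n = 3 each). The TAK1-binding adaptor gene Tab3 was the lowest at 5.92 ± 0.875 TPM.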
